A study of Homo sapiens with 16 samples.

Results

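DoG transcripts of the SERIPH 1st-step fraction were compared between HEK293 cells under the DoG-inducing condition and control cells. HEK293 is an established line from human embryonic kidney, labelled wild type, and every library of both groups came from it. Under the DoG-inducing condition the medium held 200 mM sorbitol, which raises osmotic pressure, and 100 μg/mL cycloheximide, which blocks translation, for 9 h. Control cells received neither agent. The SERIPH 1st-step fraction is the aqueous phase of a TRI Reagent and chloroform extraction, which takes up the readily extractable RNA, and its libraries were stranded, rRNA-depleted and made from 100 to 500 ng of RNA. The members were the 4 libraries so labelled, 2 biological replicates per condition, of 16 libraries in the series. The other 12 were made by conventional extraction, by heat-assisted extraction (hiAGPC) and from the SERIPH 2nd-step fraction, which is recovered by heating the washed interphase.

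DoGs, or downstream-of-gene transcripts, arise when RNA polymerase II passes the polyadenylation site of a gene without cleavage of the nascent RNA and goes on transcribing into the intergenic region. Hyperosmotic stress, heat shock, oxidative stress and viral infection are known to bring about such readthrough, and most DoG RNA stays in the nucleus close to its site of synthesis. Cleavage at most protein-coding gene ends is directed by a hexamer, usually AATAAA or ATTAAA in the DNA, whereas the mRNAs of replication-dependent histones are cut after a conserved stem-loop.

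The start of the DoG is the end of the gene in the annotation the authors used, and 3 such junctions show what lies at a DoG that rose and at DoGs that fell. Each line gives the 30 bases before the DoG start and the first 60 bases of the DoG in the GRCh38 reference, 5′ to 3′ on the strand of the gene, with the hexamer in capitals. SECISBP2 encodes a factor needed to insert selenocysteine, TMA16 a protein of ribosome assembly, and AMOTL1 a protein of cell junctions.

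SECISBP2 (rose), chr9:89363604-89363693, plus strand: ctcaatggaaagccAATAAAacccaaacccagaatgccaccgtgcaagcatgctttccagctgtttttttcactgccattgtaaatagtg

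TMA16 (fell), chr4:163520704-163520793, plus strand: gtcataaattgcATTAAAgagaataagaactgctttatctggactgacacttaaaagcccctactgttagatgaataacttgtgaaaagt

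AMOTL1 (fell), chr11:94876719-94876808, plus strand: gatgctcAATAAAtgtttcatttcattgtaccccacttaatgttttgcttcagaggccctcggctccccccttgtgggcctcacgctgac

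On the strand of the gene, AATAAA lay in the last 40 bases before the DoG start of 50.1% of 3135 DoGs with a listed region, and ATTAAA without AATAAA in a further 13.2%. AATAAA was there for 46.9% of 682 DoGs called higher, 49.2% of 333 called lower and 51.3% of 2120 not called, so the hexamer was about as frequent in each class. A different kind of gene end was found at some of the histone genes, while 8 of 23 histone DoGs (34.8%) had AATAAA in those 40 bases. The consensus of the histone stem-loop, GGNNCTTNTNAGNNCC with N for any base, was searched on the strand of the gene alone, within 100 bases on either side of the DoG start. It occurred at 11 of 23 histone DoGs and at 0 of 3112 others, or 0.351% of all DoGs. Of these 11, 7 were called higher and 4 were not called, beside 17 called higher of all 23 histone DoGs and 21.8% of all 3139 DoGs. The 30 bases around the match are shown for 3 histone DoGs that rose and for H4C4, which was not called, with the matching letters in capitals.

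H2BC8, chr6:26216211-26216240, minus strand: actcaaaGGCTCTTTTCAGAGCCactcaag

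H4C5, chr6:26204994-26205023, plus strand: aatcaaaGGCCCTTTTCAGGGCCgcccaca

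H3C8, chr6:26270916-26270945, minus strand: ttaaaaaGGCTCTTTTAAGAGCCgcctact

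H4C4, chr6:26188708-26188737, minus strand: aaccaacGGCCCTTTTCAGGGCCacctatc

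The authors listed DoG regions in each library and gave FPKM, fragments scaled to the length of the region and to the size of the library, for 3139 DoGs in all 16 libraries. FPKM was rounded to 0.01, so the depth of a library could not be recovered, and a value can be read only against the total of the same library. Gene expression was not analysed here, so the label HEK293 could not be checked against markers of the line. In bulk RNA, more cells making a DoG and more DoG RNA per cell cannot be told apart. Of the 3139 DoG regions, 1559 reached another annotated gene on the same strand, whose own RNA is then counted as well.

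The lists of the 1st-step fraction were longer under the DoG-inducing condition. The control libraries listed 289 and 326 DoG-producing genes and the treated libraries 343 and 400. Both treated libraries lay above both controls, although the higher control and the lower treated library were close. The means were 307.5 ± 26.2 and 371.5 ± 40.3 (SD, n = 2), a ratio of 1.21. The exact two-sided permutation test of these 4 libraries gave p = 0.333, the smallest value that 2 against 2 allows. Reproducible DoGs, listed in both replicates, numbered 226 in control cells and 279 in treated cells, which was 58.1% and 60.1% of the genes that either replicate listed. All 1st-step lists together named 711 genes, 20.3% of the 3505 in the 16 lists, and 652 of the 711 had an FPKM.

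**Figure D1:**
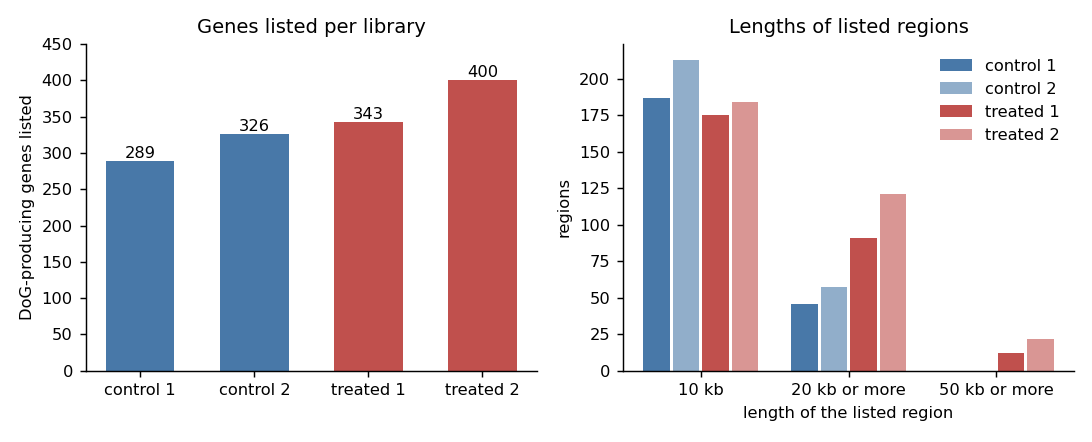
Left, the number of DoG-producing genes listed in each SERIPH 1st-step library. Right, the number of listed regions of 10 kb, of 20 kb or more and of 50 kb or more in the same libraries; the class of 50 kb or more is part of the class of 20 kb or more. The treated libraries hold 343 and 400 genes against 289 and 326, and no control library holds a region of 50 kb or more.

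Most of the reproducible DoGs were listed under one condition only. Both treated and neither control library listed 183 genes, both control and neither treated library listed 105, and all 4 libraries listed 88. Of the 183 genes gained under treatment, 174 were protein-coding and 9 were lncRNA genes. Their DoGs were also listed in both treated libraries of conventional extraction for 158 genes, of hiAGPC for 166 and of the 2nd-step fraction for 155. Among the 105 genes lost under treatment, 86 were listed in both conventional control libraries and 97 in both 2nd-step controls, against 3 and 38 in the treated libraries of these preparations.

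Listed regions reached farther from the gene under treatment. Mean lengths were 13.3 and 13.3 kb in the control libraries and 17.0 and 18.8 kb in the treated libraries (exact permutation p = 0.333). The median was 10 kb in both controls, 10 kb in treated replicate 1 and 15 kb in treated replicate 2 (exact permutation p = 1), so the difference lay in the longer regions. Regions of 20 kb or more numbered 46 and 57 in control cells and 91 and 121 in treated cells, or 15.9%, 17.5%, 26.5% and 30.3% of each list. The longest region was 45 kb in each control library and 155 and 205 kb in the treated libraries. For the 88 genes listed in all 4 libraries, the mean length was greater under treatment for 29, smaller for 18 and equal for 41.

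SRSF3, which encodes a serine/arginine-rich splicing factor, and G3BP1, which encodes a core protein of stress granules, were among the DoGs that lengthened most. The SRSF3 DoG was 10 and 10 kb long in the control libraries and 40 and 70 kb in the treated ones. The G3BP1 DoG went from 15 and 15 kb to 50 and 30 kb. Others became shorter. The DoG of BUB3, a gene of the spindle checkpoint, went from 35 and 35 kb to 20 and 10 kb, and that of AHCY, the hydrolase of S-adenosylhomocysteine, from 20 and 20 kb to 10 and 10 kb. These DoGs were picked for their lengths, so no test is given.

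FPKM showed which DoGs rose and which fell. On the scale log2(FPKM + 0.1), limma called 684 of 3139 DoGs higher under treatment (21.8%) and 333 lower (10.6%) at a Benjamini-Hochberg adjusted p under 0.05 and a change of at least 1. All but 4 of these DoGs had a region listed in the 16 libraries, treated ones included. A DoG can thus have entered the set through treated libraries alone. How far this raised the count of rises was not tested. The median FPKM over all DoGs was 0.07 in both control libraries and 0.14 in both treated libraries, and 407 and 417 DoGs were at 0 in the control libraries against 103 and 7 in the treated ones. DoGs called higher had a median FPKM of 0.02 in control and 0.263 in treated libraries. Both treated libraries lay above both controls for 1838 DoGs (58.6%) and below both for 728 (23.2%), whether called or not. DoGs called lower had a median of 0.445 in control and 0.095 in treated libraries, and on this scale a DoG with a control FPKM under 0.1 cannot be called lower. Of the 684 DoGs called higher, 621 belonged to protein-coding and 62 to lncRNA genes. The lncRNA share was 9.06% of DoGs called higher, 5.41% of those called lower and 8.39% of those not called. When each library was centred on its median over all DoGs, which removes an overall shift of 0.50 on the log2 scale, 279 were called higher (8.89%) and 583 lower (18.6%), so the balance of rises and falls depended on the scaling. Fold changes include the added 0.1 and so understate the change of DoGs with low FPKM, and with a pseudocount of 1 only 30 were called higher and 2 lower.

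**Figure D2:**
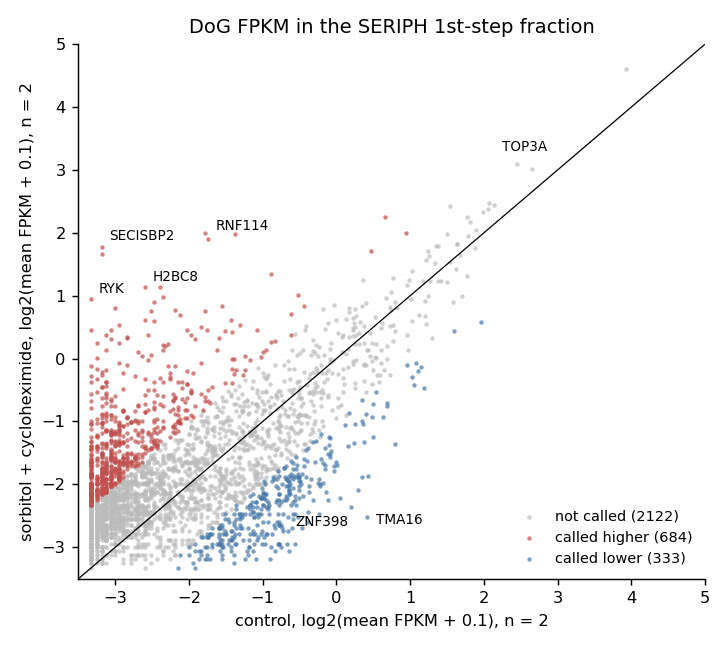
Mean of 2 libraries per condition, as log2(mean FPKM + 0.1), for each of 3139 DoGs in control (x) and treated cells (y) of the SERIPH 1st-step fraction; the line marks equal values. DoGs called higher lie mostly at the left edge, where control FPKM is near 0, while those called lower start at higher control values, since on this scale a DoG with a control FPKM under 0.1 cannot be called lower.

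On the scale log2(FPKM + 0.1), SECISBP2 had the highest fold change of all called DoGs, although the order of DoGs this near 0 in control cells depends on the amount added. Its DoG FPKM was 0.01 and 0.01 in the control libraries and 3.31 and 3.36 in the treated ones, and the listed region ran for 70 and 65 kb under treatment. The groups were far apart and the replicates close. The log2 fold change was 4.96 (SE 0.08, limma adjusted p = 1.67e-12). The DoG of the antisense lncRNA RPH3AL-AS2 stood at 0.01 and 0.01 in control cells and at 3.59 and 2.57 in treated cells, although no 1st-step library listed it (log2 fold change 4.83, SE 0.13, limma adjusted p = 7.69e-11). RYK, which encodes a Wnt receptor, was at 0 in both control libraries and at 1.77 and 1.88 in the treated libraries (limma adjusted p = 1.10e-10), and no fold is given against 0.

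Further DoGs with high fold changes belonged to genes of varied roles. PNP, a gene of purine salvage, went from 0.02 and 0.03 to 1.57 and 1.73 in DoG FPKM. The DoG of RNF114, which encodes a ubiquitin ligase, rose from 0.23 and 0.17 to 3.72 and 3.53, but its region covers SNAI1, a gene of its own on the same strand. Where the region held no other annotated gene on the same strand, the 5 highest fold changes were those of RPH3AL-AS2, the histone gene H2BC8, GATA2, the ribosomal protein gene RPS4X and CARS2. GATA2, which encodes a zinc finger transcription factor of blood and endothelium, had DoG FPKM of 0.06 and 0.12 in control cells and 1.96 and 2.24 in treated cells (log2 fold change 3.55, SE 0.24, limma adjusted p = 7.46e-08). CARS2, the mitochondrial cysteinyl-tRNA synthetase, went from 0.11 and 0.08 to 1.51 and 2.23, with the treated replicates farther apart than those of GATA2. The pseudogene HLA-DRB6 was at 0 in both control libraries and at 1.29 and 1.24 in the treated ones. Only uniquely aligned reads were kept, so reads matching near-identical HLA genes equally well are not counted. Misplaced reads were not tested for.

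TMA16 had the lowest fold change on the same scale. Its DoG FPKM was 1.06 and 1.41 in control cells, with listed regions of 25 and 20 kb, and 0.09 and 0.06 in treated cells, where it was not listed. The log2 fold change was −2.92 (SE 0.15, limma adjusted p = 7.27e-09). ZNF398, a zinc finger gene, dropped from 1.08 and 1.01 to 0.03 and 0.16, and the treated replicates differed more from each other than the controls did. COX5A, a subunit of cytochrome c oxidase, went from 0.48 and 0.60 to 0.03 and 0.01, AMOTL1 from 0.55 and 0.60 to 0.02 and 0.04, and CDCA7, a gene of the cell division cycle, from 0.44 and 0.43 to 0 and 0.02. The rule that named these DoGs required both treated libraries to lie below both controls. That was so for all 333 DoGs called lower, so it adds nothing to the calls. DCTPP1, which encodes a nucleotide pyrophosphatase, went from 1.02 and 1.22 to 0.10 and 0.17, and PTGFRN, which encodes a membrane protein, from 0.51 and 0.55 to 0 and 0.06.

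A listing and an FPKM did not always move together. Of the 183 genes gained in the lists, 163 had an FPKM, and 125 of these were called higher and 0 lower. Of the 105 lost, 100 had an FPKM, and 64 were called lower and 0 higher. Over all 3139 DoGs, 21.8% were called higher and 10.6% lower. Listings and FPKM come from the same libraries, so their overlap is not independent support. TOP3A and NEK6, which encode a topoisomerase and a mitotic kinase, were gained in the lists, yet their DoG FPKM was already 6.11 and 4.57, and 2.81 and 2.82, in control cells. In treated cells they stood at 8.70 and 8.16, and at 5.41 and 5.09, and neither was called at a change of at least 1. RPL11 was lost from the lists, whereas its FPKM, taken over a region of 90.2 kb that holds ELOA and PITHD1, was 1.62 and 1.57 in control and 2.29 and 2.35 in treated cells. FPKM was given over a single region per gene, mostly the longest one listed in any library, so it can differ from the stretch that a 1st-step library listed.

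Of DoGs whose region reached no other gene on the same strand, 18.3% were called higher and 13.5% lower, against 25.3% and 7.74% of the remainder. Reads of other genes may enter the values of the remainder, and their part was not tested. Since the region was mostly the longest one listed in any library, treated ones included, its length and the genes it reaches depend on readthrough itself, and no comparison by length is given.

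The DoGs of replication-dependent histone genes, which encode the core and linker histones made in S phase, had the highest median change of the 16 gene groups described, whose members were taken by gene symbol. Beside each group's counts stand the shares over all 3139 DoGs, 21.8% called higher and 10.6% lower, or 8.89% and 18.6% after centring. Before centring, the 1751 DoGs with a control FPKM under 0.1 cannot be called lower. The median control FPKM was below this for histones (0.075), snoRNA hosts (0.07), solute carriers (0.07) and immediate early genes (0.06). It was also below this for divergent lncRNAs (0.055), osmotic stress genes (0.0425) and antisense lncRNAs (0.015). Few calls lower in these groups cannot be read as a shortage of falls. Of 23 histone DoGs, 17 were called higher (73.9%) and 0 lower. The median log2 fold change of the group was 1.90, against 0.43 over all 3139 DoGs. H2BC8 had DoG FPKM of 0.08 and 0.05 in control cells and 2.26 and 1.94 in treated cells, and its 15 kb region holds no other annotated gene on the same strand (log2 fold change 3.74, SE 0.11, limma adjusted p = 1.21e-10). H4C5 went from 0.17 and 0.09 to 1.56 and 1.47, and H3C8 from 0.01 and 0.01 to 0.35 and 0.39, and all 3 end in the stem-loops shown above. H2AC12 went from 0.04 and 0.11 to 1.61 and 1.55. H4C4, whose region spans other histone genes, was high in both conditions, at 4.10 and 3.12 in control and 4.17 and 3.90 in treated cells. After centring, 14 of the 23 were called higher and 0 lower. Histone genes lie in clusters, and only 6 of the 23 regions held no other gene on the same strand; all 6 of these were called higher.

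Genes of the ribosome and of translation followed a less even course. Of 43 DoGs of cytosolic ribosomal protein genes, 20 were called higher (46.5%, against 21.8% of all) and 1 lower (median 0.94), and 10 and 3 after centring. Only 10 of the 43 regions held no other gene on the same strand, and of these 2 were called higher and 1 lower, near the 18.3% and 13.5% of all such DoGs. RPS4X, a protein of the small subunit and 1 of these 2, had DoG FPKM of 0.01 and 0.02 in control cells and 1.22 and 1.16 in treated cells over a 15 kb region with no other gene (log2 fold change 3.49, SE 0.09, limma adjusted p = 5.60e-11). RPL31, of the large subunit, went from 0.04 and 0.04 to 1.19 and 1.14, and RPL32 from 0.16 and 0.13 to 1.19 and 1.34. The DoG of RPL39L, a paralog of a large subunit protein, was 0.13 and 0.20 in control cells and at 0 in both treated libraries. Among 31 genes of translation factors and their regulators, 6 were called higher (19.4%) and 3 lower (9.68%), close to the shares over all DoGs, and the median of 0.45 became −0.05 after centring. EIF5A, which helps ribosomes through difficult peptide bonds, rose from 0.09 and 0.07 to 1.37 and 1.45, whereas EIF4EBP1, a repressor of cap-dependent translation, fell from 0.39 and 0.33 to 0.07 and 0.08. The lncRNA hosts of snoRNAs had 6 of 10 DoGs called higher and 0 lower, against 21.8% and 10.6% of all, but 2 and 0 after centring, and were led by SNHG29 with 0.01 and 0.01 in control and 0.26 and 0.25 in treated cells.

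Of 30 DoGs of immediate early and superinduced genes, whose short-lived mRNAs accumulate when translation is blocked, 16 were called higher (53.3%, against 21.8% of all) and 0 lower (median 1.01), and 6 and 0 after centring. Of the 9 whose region held no other gene on the same strand, 1 was called higher and 0 lower, against 18.3% and 13.5% of all such DoGs. DUSP1, a phosphatase of MAP kinases, went from 0.07 and 0.06 to 1.33 and 1.53. HES1, a transcriptional repressor downstream of Notch, went from 0.09 and 0.11 to 1.16 and 0.94. DUSP5 went from 0.03 and 0.04 to 0.56 and 0.67. The DUSP1 and HES1 regions each reach another gene on the same strand, and the DUSP5 region does not. Of 4 osmotic stress genes with a DoG, 2 were called higher and 0 lower, against 21.8% and 10.6% of all, and 1 and 0 after centring. SLC6A6, the taurine transporter, went from 0.01 and 0.02 to 0.23 and 0.36, and MAP2K3, a kinase of the p38 pathway, from 0.01 and 0 to 0.20 and 0.12. Among 24 heat shock and chaperone genes, 7 were called higher (29.2%) and 3 lower (12.5%), against 21.8% and 10.6% of all, and the median of 0.43 was −0.07 after centring. DNAJA1 and DNAJB1, both co-chaperones of Hsp70, rose from 0.04 and 0.07 to 0.91 and 1.05 and from 0.02 and 0.02 to 0.53 and 0.53, while DNAJC30 fell from 0.66 and 0.74 to 0.10 and 0.12.

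Splicing factors and RNA helicases had 26 of 72 DoGs called higher (36.1%, against 21.8%) and 1 lower (1.39%, against 10.6%), and 14 and 9 after centring, and their median was 0.56. Of the 27 whose region held no other gene on the same strand, 7 were called higher and 1 lower, against 18.3% and 13.5% of all such DoGs. HNRNPDL, an hnRNP protein, rose from 0.02 and 0.02 to 1.22 and 1.07 (log2 fold change 3.37, SE 0.08, limma adjusted p = 5.14e-11). DDX39B, a helicase of splicing and mRNA export, went from 0.04 and 0.04 to 1.19 and 1.12, and PTBP3, an RNA-binding regulator of splicing, fell from 0.50 and 0.63 to 0.22 and 0.17. Genes of transcription and 3′ end processing were split, with 10 of 37 called higher (27.0%) and 6 lower (16.2%), against 21.8% and 10.6% of all, and with 4 and 7 after centring. CSTF3 and CPSF1, both subunits of complexes that act at polyadenylation sites, rose from 0.01 and 0.01 to 0.62 and 0.64 and from 0.04 and 0.02 to 0.46 and 0.33. GTF2E2 and GTF2F2, subunits of general transcription factors, fell from 0.70 and 0.63 to 0.06 and 0.07 and from 0.28 and 0.46 to 0 and 0.02.

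The groups of mitochondrial and zinc finger genes had more DoGs called lower than higher on this scale, a lean that not every setting kept. Of 51 DoGs with the symbols of nuclear genes for mitochondrial proteins, 8 were called higher (15.7%) and 12 lower (23.5%), against 21.8% and 10.6% of all (median −0.13), and 2 and 19 after centring. With a pseudocount of 0.01 the counts were 15 and 15, beside 1498 higher and 492 lower of all 3139 DoGs. Over the 25 regions with no other gene on the same strand they were 5 and 4, against 18.3% and 13.5% of all such DoGs. The 51 include the divergent lncRNA NDUFA6-DT and the pseudogene SDHAP1, which was called lower (log2 fold change −1.48). Beside COX5A, NDUFV3, a subunit of complex I, fell from 0.62 and 0.37 to 0.03 and 0.09, and MRPL39, of the mitochondrial ribosome, from 0.55 and 0.58 to 0.09 and 0.12. NDUFV1, another subunit of complex I, rose from 0.02 and 0.01 to 0.61 and 0.67, over a region of 345 kb that reaches 6 other genes. Of 76 zinc finger genes, 8 were called higher (10.5%) and 13 lower (17.1%), and 3 and 26 after centring. With a pseudocount of 0.01 they were 22 and 22, again beside 1498 and 492 of all 3139 DoGs. The group median of −0.02 lay close to 0. ZNF383 dropped from 0.90 and 0.91 to 0.21 and 0.21, and ZKSCAN2 rose from 0.02 and 0.01 to 0.35 and 0.36.

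DNA replication and cell cycle genes had 5 of 48 DoGs called higher (10.4%, against 21.8% of all) and 7 lower (14.6%, against 10.6%), and 0 and 14 after centring, and their median of 0.20 became −0.30 after centring. MCM5, a subunit of the replicative helicase, fell from 0.59 and 0.48 to 0.13 and 0.19, and ORC6, of the origin recognition complex, rose from 0.06 and 0.09 to 0.31 and 0.33. Ubiquitin and proteasome genes had 14 of 66 higher (21.2%) and 7 lower (10.6%), close to the 21.8% and 10.6% over all DoGs, and 6 and 14 after centring, and the median went from 0.43 to −0.07. UBE2S, a ubiquitin-conjugating enzyme of mitotic exit, rose from 0.13 and 0.11 to 1.54 and 1.66, and OTUD6B, a deubiquitinase, fell from 0.49 and 0.64 to 0.10 and 0.04. Solute carriers were near the shares over all DoGs as well, with 9 of 39 higher (23.1%) and 4 lower (10.3%), and 2 and 5 after centring. The glucose transporter SLC2A1 rose from 0.02 and 0.01 to 0.47 and 0.38, and the amino acid transporter SLC43A1 fell from 0.30 and 0.28 to 0.02 and 0.04. Antisense lncRNAs had 33 of 127 higher (26.0%, against 21.8%) and 6 lower (4.72%, against 10.6%), with a median of 0.67, and 13 and 10 with a median of 0.17 after centring. Their median control FPKM was 0.015, so before centring most of them could not be called lower. Divergent lncRNAs, which start from the promoter of a neighbouring gene in the other direction, had 4 of 32 higher (12.5%) and 4 lower (12.5%), and 1 and 4 after centring, and their median of 0.39 became −0.11 after centring.

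**Figure D3:**
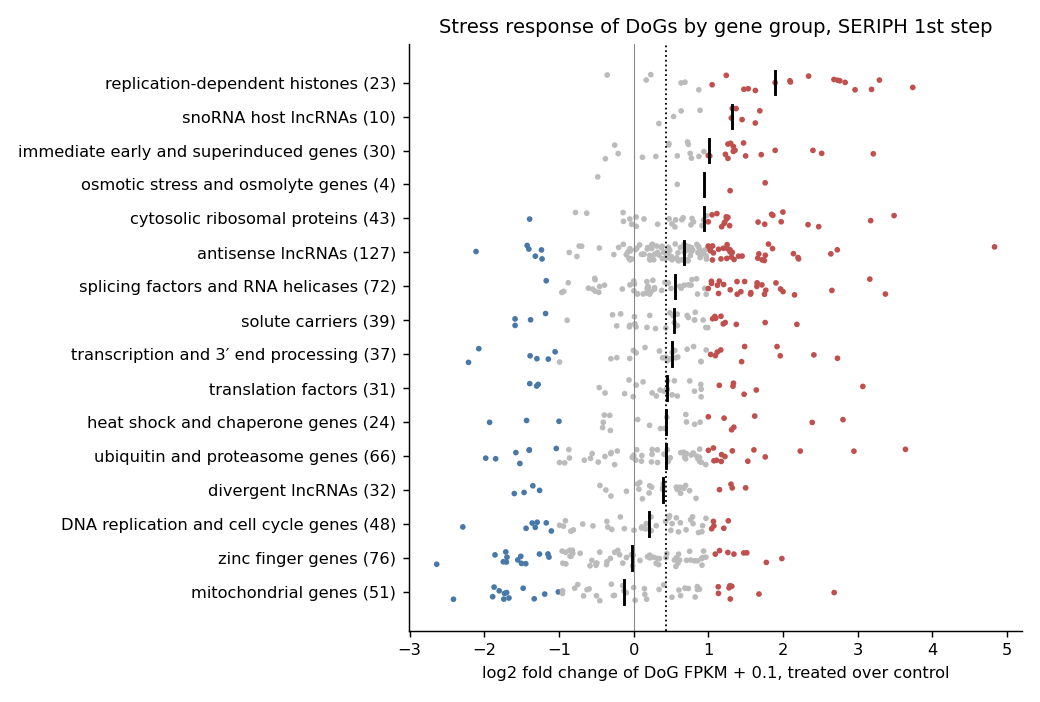
Log2 fold change of DoG FPKM + 0.1, treated over control, for each DoG of 16 gene groups in the SERIPH 1st-step fraction, with the number of DoGs in brackets. Red points were called higher, blue points lower and grey points neither; the short bars are group medians and the dotted line is the median of all DoGs, 0.43. Histone DoGs have the highest median, 1.90, and the group of mitochondrial genes the lowest, −0.13.

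The conventional preparation, which is also an aqueous phase, was the closest to the 1st-step fraction. Its treated and control libraries gave 697 DoGs called higher (22.2%) and 345 lower (11%). Of the 684 DoGs called higher in the 1st-step fraction, 593 were called higher and 0 lower in the conventional preparation, and of the 333 called lower, 290 were called lower and 0 higher. The SECISBP2 DoG was 0.01 and 0.01 in conventional control libraries and 2.77 and 2.76 in treated ones, and the TMA16 DoG was 1.58 and 1.48 against 0.08 and 0.08. The test of the difference between the 2 treatment effects called 0 of 3139 DoGs by limma, with 306 at an unadjusted p under 0.05 and a lowest adjusted p of 0.391. Between the 2 preparations in control cells 0 DoGs were called, with 355 at an unadjusted p under 0.05. In treated cells 0 were called as well, with 933 at an unadjusted p under 0.05 and 198 at an adjusted p under 0.05 with a change below 1. Without treated replicate 2, 31 DoGs were called for the difference of effects and 44 in treated cells, and without control replicate 2, 2 and, in control cells, 13.

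In the 2nd-step fraction, the fold changes of FPKM as deposited were larger. There 2343 DoGs were called higher (74.6%) and 366 lower (11.7%), and 678 of the 684 DoGs called higher in the 1st step were among the former. For the 684, the median log2 fold change was 1.36 in the 1st step and 3.27 in the 2nd, and the median treated FPKM was 0.263 and 1.24. The difference of the effects was called below 0 for 2288 DoGs (72.9%) and above 0 for 132 (4.21%). Both fractions came from the same lysates, and the model treated their libraries as independent. FPKM is relative to each library. Centring brings the median difference of −1.76 to −0.0053 by its construction, and 291 and 703 DoGs were then called below and above 0, so the centred values show no order between the fractions over all DoGs. The 2nd-step libraries were also made from less RNA, 5 to 50 ng, and the part of this in the difference was not tested. The DoGs were drawn from lists that include those of the treated 2nd-step libraries, and the part of this was not tested either. In hiAGPC, 2203 DoGs were called higher (70.2%) and 287 lower (9.14%), among them 680 of the 684 and 212 of the 333. A further 1663 DoGs were called higher in the 2nd step and not called in the 1st. Of the 155 genes gained in the 1st step and listed in both treated 2nd-step libraries, 135 had longer regions in both 2nd-step libraries than in the 1st step and 0 had shorter ones, with medians of 85 kb and 15 kb.

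For some DoGs the treated FPKM, which is relative to each library, was higher in the 1st step than in the 2nd. Both treated 1st-step libraries lay above both treated 2nd-step libraries for 199 of the 3139 DoGs and for 29 of the 684 called higher. RNF114 stood at 3.72 and 3.53 in the treated 1st step and at 0.91 and 0.93 in the treated 2nd step, with a difference of log2 effects of 2.10 (SE 0.15). HLA-DRB6 stood at 1.29 and 1.24 against 0.31 and 0.19, and PNP at 1.57 and 1.73 against 0.93 and 0.91. Of the 333 DoGs called lower in the 1st step, 239 were called lower in the 2nd step as well and 2 were called higher. EIF4EBP1 was 0.07 and 0.08 in the treated 1st step, down from 0.39 and 0.33, but 0.78 and 0.62 in the treated 2nd step, where control values were 0.53 and 0.50.

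**Figure D4:**
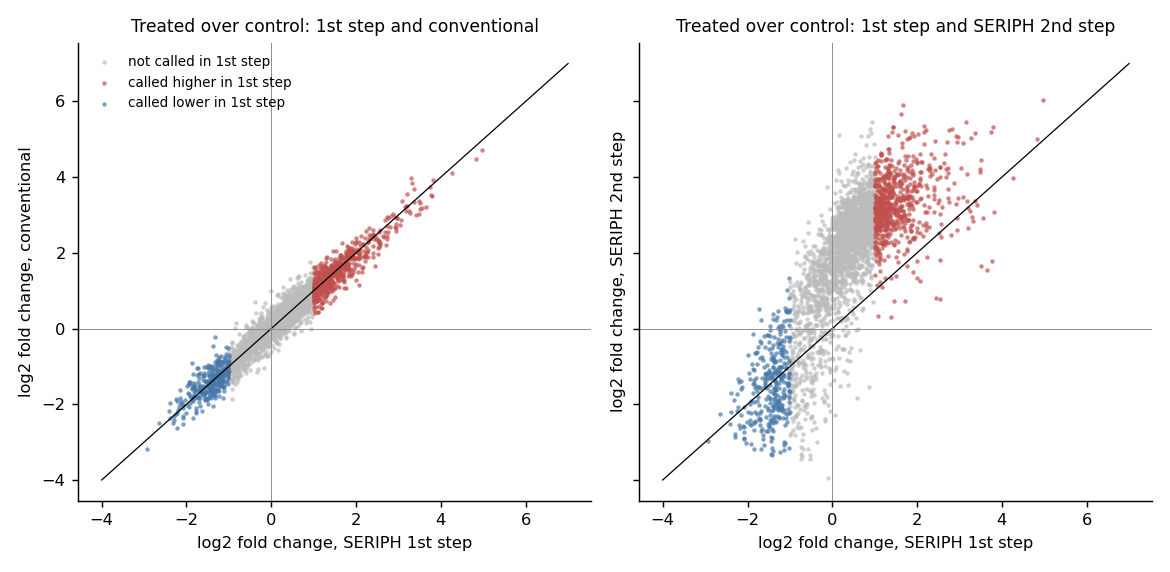
Log2 fold change of DoG FPKM + 0.1, treated over control, in the SERIPH 1st step (x) against the conventional preparation (y, left) and the SERIPH 2nd step (y, right), 1 point per DoG, coloured by the call in the 1st step; the line marks equal values. Points lie along the line on the left and mostly above it on the right, where 0 and 2288 DoGs were called with a lower effect in the 1st step before centring.

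**Figure D5:**
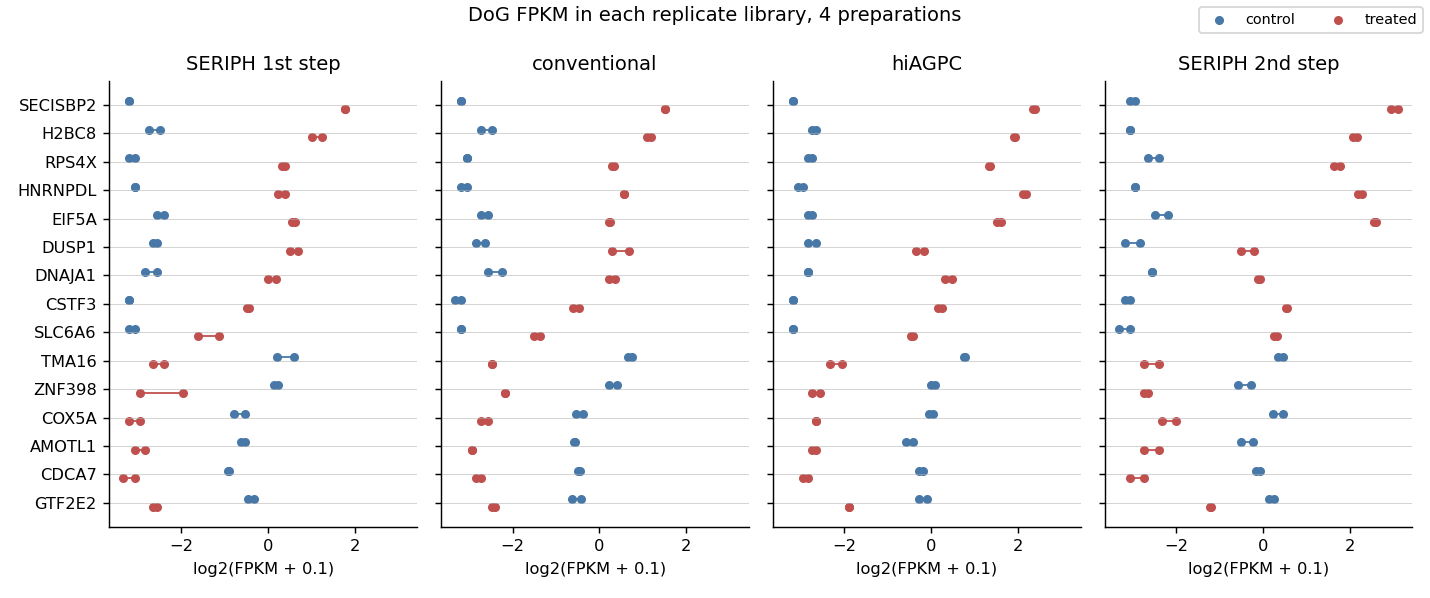
Log2(FPKM + 0.1) of 15 DoGs in both replicate libraries of control (blue) and treated cells (red) in each preparation; a line joins the replicates. The upper 9 DoGs were called higher and the lower 6 called lower in the 1st step, and control and treated libraries do not overlap for any of the 15 in any preparation. In the 1st step this holds for every called DoG.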

How the data were processed

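RNA was sequenced from control and treated HEK293 cells in 16 libraries, of which the 4 of the SERIPH 1st-step fraction are described, and 0 columns of the table belonged to no library. The authors trimmed reads with fastp 0.25.0, removed ribosomal reads with Bowtie2 2.5.4, aligned the rest uniquely to GRCh38 with STAR 2.7.11b and listed DoGs of at least 10 kb per library with ARTDeco. FPKM values per DoG were deposited by the authors for 3139 DoGs, to a step of 0.01, and the reads used for scaling are not given in the sources used here. Depth is therefore unknown and no counting error is given.

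Groups were taken from the labels. Lists were compared by two-sided exact permutation tests and FPKM by limma 3.58.1 in R 4.3.3, on log2(FPKM + 0.1), with an intensity trend over all 16 libraries, Benjamini-Hochberg adjustment over all DoGs and no filter. On simulated data the model for the treatment effect in the 1st step recovered 200 of 200 changed DoGs among 3139. All planted changes were well above the threshold of 1, with normal noise on the log2 scale. The recovery of changes near that threshold was therefore not tested. Tables were handled with Python 3.11.15 and pandas 2.3.3, permutation tests with scipy 1.17.1, and figures drawn with matplotlib 3.10.9. Overlapping genes and gene types came from GENCODE v44, an older release than that of the authors, which held 3499 of 3509 gene identifiers. The sequences and motif counts used the deposited DoG starts instead. Of the regions, 94.0% began within 1 kb of the v44 gene end. SECISBP2 was an exception, with its v44 gene end at 89359663 and its DoG start at 89363634.

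The members, gene groups and tests were chosen with earlier results of these data known. The genes described singly are, by rule, the called DoGs with the highest and lowest fold changes, over all and over regions with no other gene, the gained and lost genes with the highest FPKM, those with the largest length changes, the leading DoGs of each gene group and those with the largest differences of effect between preparations. The rule for fold changes over all DoGs also asked that treated and control libraries not overlap, which every called DoG met. The other members named in the gene groups, and the DoGs named for standing higher in the 1st than in the 2nd step, were chosen after their values were seen. For 1 gene that met the rule, values are not reported here. Alternatives were other pseudocounts, a filter on FPKM, centring, a replicate block, smaller sets of libraries or DoGs, no trend, the adjusted p alone and each replicate left out.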

Additional observations from a re-analysis of the deposited data

Results flagged for a closer look

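The treatment effect differed between the SERIPH 1st-step and 2nd-step fractions by the test of the difference itself, in the limma model of all 16 libraries with Benjamini-Hochberg adjustment, for 132 DoGs above 0 and 2288 below 0. The 3 highest and the 3 lowest of these differences are given here. The DoG of HCCS-DT, a divergent lncRNA, was 0.06 and 0.04 in control and 0.04 and 0.04 in treated 1st-step libraries, but 1.55 and 1.64 against 0.01 and 0.01 in the 2nd step, a difference of 3.85 on the log2 scale. For AGAP9 the difference was 2.93, with 1.14 and 1.46 against 0.76 and 0.98 in the 1st step and 2.47 and 2.46 against 0.16 and 0.11 in the 2nd. Reads matching near-identical copies of this gene equally well are not counted, and misplaced reads were not tested for. NEIL3, which encodes a DNA glycosylase, differed by 2.81, with 1.23 and 1.47 against 0.94 and 0.87 in the 1st step and 1.61 and 1.71 against 0.06 and 0.09 in the 2nd. None of the 3 was called changed in the 1st step, so their differences rest on a fall in the 2nd.

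In the other direction, the DoG of the histone gene H4C4 differed by −4.96. It was 4.10 and 3.12 in control and 4.17 and 3.90 in treated 1st-step libraries, and 0.03 and 0.03 against 4.39 and 4.48 in the 2nd step, and its region of 154 kb holds the histone genes H1-2, H2BC4 and H1-6. RAB3A, which encodes a GTPase of vesicle release, differed by −4.52, with 0.02 and 0.01 against 0.12 and 0.12 in the 1st step and 0.01 and 0.01 against 4.86 and 4.64 in the 2nd. ADAMTSL4-AS2, an antisense lncRNA, differed by −4.42, with 0.33 and 0.23 against 0.56 and 0.45 and 0.05 and 0.05 against 5.12 and 4.92.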

How the results depend on the processing

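The count of DoGs called in the 1st step depended most on the scale. Of 684 called higher and 333 lower, pseudocounts of 0.01 and 1 gave 1498 and 30 higher and, for the latter, 2 lower, centring gave 279 and 583, the adjusted p alone gave 1789 and 691, regions with no other gene gave 289 and 212 and DoGs listed in a 1st-step library 218 and 143, the last 2 with fewer DoGs tested. Leaving out a replicate gave 671 to 737 higher and 317 to 360 lower. For the difference from the 2nd step, 132 above and 2288 below 0 became 12 and 512 with a pseudocount of 1, 703 and 291 with centring, which sets the median difference near 0, 76 and 1085 for regions with no other gene, and 250 above 0 with the adjusted p alone; the cause of the others was not tested. For the difference of effects from the conventional preparation, leaving out a replicate gave 0 to 31 calls. Between the 2 preparations in control cells the 0 calls became 2 with a pseudocount of 0.01 and 0 to 13 with a replicate left out. In treated cells they became 31 with that pseudocount, 1 with a mean FPKM of at least 0.1, 1 with the replicate block, 198 with the adjusted p alone and 0 to 44 with a replicate left out. The 1st and 2nd steps are fractions of the same lysates, but the labels do not say which replicate numbers share a lysate. Replicate deviations correlated by −0.073 between the 1st and 2nd steps in control cells and by 0.023 in treated cells. Between the control and treated 1st-step libraries they correlated by 0.127. The replicate block was a single term for all groups, so it did not pair the fractions within a condition. With it, 684 and 333 DoGs were called in the 1st step and 2287 below 0 against the 2nd step, so it changed no other count by more than 1. The median length difference of 2.5 kb was 0 to 5 kb with a replicate left out and 0 kb for regions with no other gene, and the ratio of listed genes of 1.21 was 2.06 for regions of 20 kb or more. Single DoGs that turned direction had not been called: H4C4 was −0.33 after centring and −0.023 to 0.36 with a replicate left out (the lowest without control replicate 2), BUB3 −0.19 after centring, and AHCY −0.38 after centring and −0.066 to 0.29 with a replicate left out (the lowest without treated replicate 1). With 2 libraries per group, the permutation tests could not pass 0.05, and low FPKM rounded to 0.01 limits the size of small values.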
